A study of Mus musculus with 12 samples.

Results

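Semaphorins are guidance signals of axons, vessels and migrating cells, and plexins and neuropilins are their receptors. Class 3 semaphorins are secreted and, with few exceptions, bind a neuropilin, which has a short cytoplasmic tail and signals through a partnering A-class or D-class plexin. Classes 4 to 7 are anchored in the membrane and mostly bind plexins directly, and plexins turn off small GTPases of the Rap and Ras families through a domain inside the cell. In fibroblasts the family is known for control of adhesion, of the actin skeleton and of migration. Members were the genes whose mouse symbol names a semaphorin of classes 3 to 7 or a plexin, together with both neuropilins and the plexin domain-containing genes Plxdc1 and Plxdc2. The count table held 34 of them among 24100 identifiers, namely 7 secreted semaphorins, 13 membrane semaphorins, 9 plexins, 2 neuropilins, 2 Plxdc genes and Plxna4os1, an RNA antisense to Plxna4 that the symbol rule takes in. Plxna3 was picked by its fall in both lines, so its differences are given as a description with no test.

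RNA was sequenced from mouse embryonic fibroblasts (MEFs) with and without RTF2, a protein of the replication fork. RTF2-deficient MEFs carried a null and a floxed allele (Rtf2-/lox), wild-type (WT) MEFs were Rtf2+/+ littermate controls, and both received Cre by retrovirus 72 hours before collection, so the controls carried Cre too. Line 1 and line 2 came from different mothers, and according to the methods the cells were immortalized with SV40. Each line and genotype had 3 libraries, described in the study as technical replicates. That gives 4 groups and 12 libraries, with totals from 39360167 to 44695002 counts (median 42066275). P-values therefore measure the spread between such libraries, and only the comparison of the 2 lines speaks to the spread between embryos. Within a line the WT and RTF2-deficient cells came from different embryos, so genotype cannot be told apart there from embryo. In each library, 3 counts, the limit that a count of 0 allows, corresponded to between 0.0651 and 0.0770 CPM (counts per 1000000 counts, TMM-normalized), which covers counting error only.

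The labels were checked on the counts. Rtf2 had 44.9, 44.8 and 47.2 CPM in WT line 1, 5.64, 5.44 and 6.29 CPM in RTF2-deficient line 1, 57.8, 52.9 and 50.9 CPM in WT line 2 and 6.66, 6.49 and 6.33 CPM in RTF2-deficient line 2. Every RTF2-deficient library was thus below every WT library. All 10 fibroblast markers on a fixed list were measured and passed the filter, with the matrix gene Fn1 (5618 to 11121 CPM) highest. Their sums were 30090.2, 28153 and 23015 CPM in WT line 1, 31837, 28024 and 25177 CPM in RTF2-deficient line 1, 21508, 19619.8 and 21549 CPM in WT line 2 and 21644, 24501 and 23517 CPM in RTF2-deficient line 2, so WT line 2 was below WT line 1. Col1a2, Pdgfrb and Thy1 were called lower in WT line 2 than in WT line 1, or 30% of the list beside 14.0% of all genes, but the list did not move as one, since 4 of 10 were above 0 and Pdgfra, highest of them at 1.28, was not called. Col1a1 had 4849 to 9494 CPM, whereas the fibroblast markers Pdgfra (3.49 to 21.7 CPM) and Dcn (0.392 to 2.10 CPM) were low in every library. Endothelial markers (4 of 8 passed the filter, Kdr highest at 6.71 to 15.2 CPM) summed to 18.6, 12.8 and 16.0 CPM in WT line 1, 26.3, 20 and 24.9 CPM in RTF2-deficient line 1, 20.4, 18.5 and 23.6 CPM in WT line 2 and 20.2, 20 and 17.6 CPM in RTF2-deficient line 2, with Pecam1, Cdh5, Tie1 and Emcn each below 1 CPM. In line 1 every RTF2-deficient library was thus above every WT library, with all 4 tested genes above 0 and none called, and in line 2 the genotypes overlapped; the part of this in the differences of line 1 was not tested. In bulk RNA, fewer cells of a type and less RNA per cell cannot be told apart.

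WT line 2 stood apart from the other groups in genes outside the family. It alone had the Y-linked Ddx3y at 91.8 to 107 CPM and Xist at no more than 0.132 CPM, while the other groups had Xist at 103 CPM or more and Ddx3y at 0.195 CPM or less. The other Y-linked genes had mean levels of 28.1 CPM (Kdm5d), 28.4 CPM (Uty) and 44.3 CPM (Eif2s3y) in WT line 2, and the female-like values elsewhere include its RTF2-deficient partner. Within line 2, genotype thus cannot be told apart from sex or embryo. Between the WT lines and in the interaction, line cannot be told apart from sex or embryo either. The 15 interferon-stimulated genes of a fixed list, all measured, summed to 486, 98.3 and 134 CPM in WT line 1, 194, 96.1 and 99.2 CPM in RTF2-deficient line 1, 7481, 739 and 2169 CPM in WT line 2, and 161, 325 and 2899 CPM in RTF2-deficient line 2. Bst2 was the most abundant of these genes by the mean over all 12 libraries (15.2 to 779.5 CPM). In WT line 2 Ifit1 had a higher mean than Bst2 (416 beside 401 CPM). Their sum was thus high in all of WT line 2 and in replicate 3 of RTF2-deficient line 2. Their part in the differences below was not tested.

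Markers of other cell types differed between groups. Their sums were low except in the neuronal list, where Map2 had 36.2 to 92.9 CPM and Tubb3 had 8.25 to 53.3 CPM. Neuronal markers (4 of 7 passed the filter, Stmn2 highest at 22.7 to 111 CPM) summed to 159, 169.8 and 189 CPM in WT line 1, 182, 186 and 199 CPM in RTF2-deficient line 1, 81.0, 125 and 108 CPM in WT line 2 and 169, 148 and 127 CPM in RTF2-deficient line 2. Their sum was thus lowest in WT line 2, and the defining marker Rbfox3 had at most 0.0434 CPM, with Snap25, Syt1 and Elavl3 below 1 CPM. Macrophage markers (3 of 6, Cd68 highest at 1.44 to 8.95 CPM) summed to 3.70, 2.48 and 3.26 CPM in WT line 1, 3.03, 2.67 and 3.39 CPM in RTF2-deficient line 1, 9.92, 7.03 and 8.24 CPM in WT line 2 and 5.34, 6 and 5.06 CPM in RTF2-deficient line 2. Schwann and neural crest markers (3 of 6, Mbp highest at 3.05 to 8.12 CPM) summed to 4.54, 4.01 and 4.95 CPM in WT line 1, 6.21, 6.18 and 6.49 CPM in RTF2-deficient line 1, 8.51, 7.08 and 8.95 CPM in WT line 2 and 3.95, 5.29 and 5.65 CPM in RTF2-deficient line 2. Both sums were highest in WT line 2, with Ptprc, Adgre1, Fcgr1, Sox10 and Foxd3 each below 1 CPM. Between genotypes, Mbp was called higher in line 1 (log2 fold change 0.71) and lower in line 2. Its effects differed by -1.41 between lines, which was called. Within line 2, S100b (-1.72) and Cd68 (-1.07) were also called lower, and the neuronal Syt1 (1.36) was called higher. Over both lines the epithelial Krt18 was called higher (0.74, adjusted p = 0.0381), as was Kdr, given below. Between the WT lines, Mbp (1.07), Cd68 (2.01), Krt8 (3.52) and Krt18 (1.94) were called higher in line 2. Tubb3 (-1.74) and Myod1 (-5.99) were called lower, where 14.0% of all genes were called. Between the RTF2-deficient lines, Krt18 (1.73) and Des (1.86) were called higher in line 2, beside 1.94% of all genes. Epithelial markers (4 of 6, Krt18 highest at 1.22 to 12.4 CPM) summed to 2.25, 2.06 and 2.36 CPM in WT line 1, 2.77, 4.27 and 3.68 CPM in RTF2-deficient line 1, 9.66, 7.34 and 6.85 CPM in WT line 2 and 13.1, 10.6 and 9.13 CPM in RTF2-deficient line 2. Muscle markers (2 of 5, Des highest at 2.70 to 18.3 CPM) summed to 7.50, 5.18 and 9.14 CPM in WT line 1, 3.32, 4.59 and 6.41 CPM in RTF2-deficient line 1, 6.54, 6.70 and 9.49 CPM in WT line 2 and 12.8, 18.7 and 16.2 CPM in RTF2-deficient line 2. Epithelial sums were thus higher in line 2 and the muscle sum was highest in RTF2-deficient line 2 through Des, while the muscle regulator Myod1 had 2.91 CPM in WT line 1 replicate 1 and at most 0.0452 CPM in line 2, with Epcam, Krt8, Krt5, Krt14, Myog, Myh3 and Ttn below 1 CPM. The part of these markers in the differences of the members was not tested.

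Levels of different genes are compared here as CPM per kilobase of the longest annotated transcript, averaged over the 12 libraries. Nrp1, the neuropilin that pairs with Sema3a and with VEGF-A, had the highest level of the family by this length, 120.0 CPM per kilobase (79.3 to 187), above Nrp2 at 12 in every library. Among plexins, Plxnb2, a receptor of class 4 semaphorins, had 77.8 CPM per kilobase (65.7 to 95.4), above Plxna1 at 47.0 (33.4 to 55.7) in all 12 libraries. Sema3a, the founding repellent of the family, was the highest ligand at 43.6 CPM per kilobase (33.9 to 52.4) and exceeded Sema3f at 25.5 in 11 of 12 libraries. Plxdc2, a transmembrane protein with a plexin-like domain, had 24.5 CPM per kilobase, against 0.118 for Plxdc1. Levels of membrane semaphorins were lower. Sema7a, which is tethered by a lipid anchor and binds integrins, had 5.65 CPM per kilobase (1.15 to 15.6) and Sema4c, a ligand of Plxnb2, had 5.30 (4.55 to 6.89), and since Sema7a exceeded Sema4c in 5 of 12 libraries their order does not hold beyond the spread. With the length of the union of exons in place of the longest transcript, Plxnb2 (65.5 CPM per kilobase) and Plxna1 (46.9) stood above Nrp1 (44.7), and Plxdc2 (24.5) above Sema3a (18.6), so the order between classes depends on the length used; the highest gene of each class was unchanged. The expressed set held ligands, coreceptors and plexins together.

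Of the 34 members, 32 passed the filter on low counts and were tested, and Plxna4os1 (at most 0.0513 CPM) and Plxnb3 (at most 0.0491 CPM) did not. These maxima lie below the level of 3 counts. Differences are log2 fold changes from edgeR's quasi-likelihood fit over all 14263 genes tested, and a call means a Benjamini-Hochberg adjusted p under 0.05 over all of them. Between genotypes over both lines, 5 of the 31 tested members other than Plxna3 were called, or 16.1%, beside 13.2% of all genes tested, which is near the background and not a result about the members. There were 3 lower (8.18% of all genes) and 2 higher (4.98%), and 1 of the 5 passed a log2 fold change of 1 (1.72% of all genes). Within line 1, 2 of 31 were called (3.20% of all genes), both of them higher (0.680% of all genes were higher and 2.52% lower). Within line 2, 7 of 31 were called (12.5% of all genes), 4 lower (7.03%) and 3 higher (5.42%), and 6 of them passed a log2 fold change of 1 (3.78%). The effects of genotype differed between lines in 2 of 31 members (1.29% of all genes). Between the WT lines, 8 of 31 were called (14.0% of all genes), 4 lower in line 2 (7.31%) and 4 higher (6.70%), and 7 passed a log2 fold change of 1 (6.76%). Between the RTF2-deficient lines, 3 of 31 were called (1.94% of all genes). In the 31 members, log2 fold changes over both lines had a median size of 0.36, beside 0.15 in all genes, whereas the signed medians were 0.06 and 0.00. Between the WT lines the median size was 0.38, beside 0.18.

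**Figure D1:**
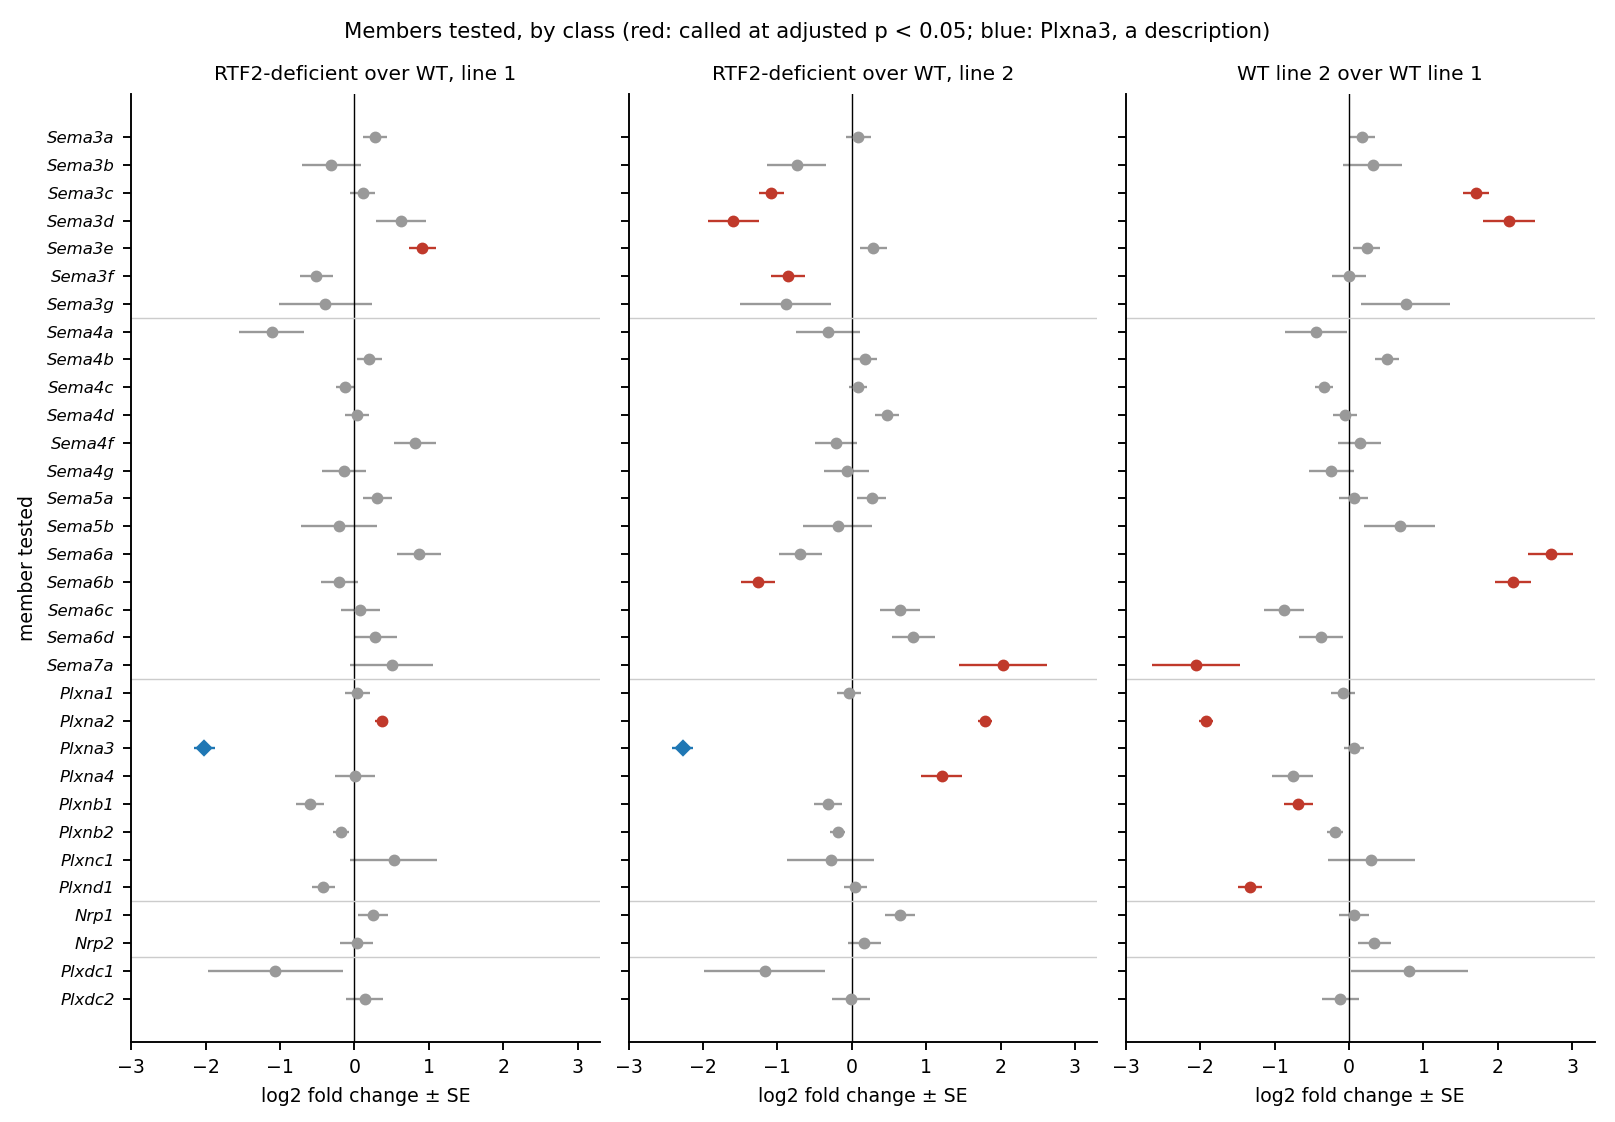
Log2 fold change with its standard error for each of the 32 members tested, by class, between genotypes in line 1, between genotypes in line 2 and between the WT lines (3 libraries a group, positive values higher in RTF2-deficient or in WT line 2). Red points were called at an adjusted p under 0.05 and the blue point is Plxna3, chosen by its fall; Plxna2 stands at 1.79 between genotypes in line 2 and at -1.92 between the WT lines.

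The comparison within line 2 and that between the WT lines share the 3 WT libraries of line 2, so values from both are set side by side and are not independent of each other. A level peculiar to WT line 2 enters both with opposite sign.

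Within line 1, libraries with the same replicate number resembled each other across genotypes, with correlations of residuals from 0.431 to 0.625. The 6 libraries of line 1 were therefore fitted alone with a replicate block (the paired fit below), chosen after seeing the data. With the block, 16 of 31 members were called, 6 lower (19.4%, beside 14.2% of all genes) and 10 higher (32.3%, beside 13.9%). Without it, 2 of 31 were called in the same 6 libraries, and the share of all genes called was 2.52% without the block and 28.1% with it, so calls rose in all genes as well. The numbers of the WT lines went together as well (correlations from 0.304 to 0.424), and the 6 WT libraries fitted alone with the block called 10 members, 5 lower and 5 higher in line 2 (17.6% of all genes were called). They took in the 8 called with all libraries and, in addition, Sema4b (0.51, SE 0.123, adjusted p = 0.0337) and Sema6c (-0.85, SE 0.144, adjusted p = 0.00924). In RTF2-deficient line 2, libraries did not go with the same number in other groups (correlations from -0.587 to 0.166). A replicate block on all 12 libraries is thus no pairing there, and calls gained or lost with it below carry that limit. The labels do not say what the numbers share.

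In the paired fit of line 1 the members higher were Sema3a, Sema3d, Sema3e, Sema4b, Sema4f, Sema6a, Sema7a, Plxna2, Nrp1 and Plxdc2, and those lower were Sema3b, Sema3f, Sema4a, Plxnb1, Plxnb2 and Plxnd1. Each of the 16 moved in its direction in 3 of 3 pairs. They were called from these same pairs, so this adds no support. Sema3c, Sema4c, Sema5a and Plxdc1, which were not called there, also kept a single direction in 3 of 3 pairs. The share of all genes that did so is not given here. Sema3e had the smallest adjusted p (log2 fold change 0.90, SE 0.0559, adjusted p = 2.08e-05). For Plxna3 the paired log2 fold change was -2.03 (SE 0.0812), as a description. Paired values stand beside each gene whose call they change.

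Among the secreted ligands, Sema3f was called lower and Sema3e higher in RTF2-deficient cells over both lines. Sema3f, which repels axons and vessels through Nrp2, had 110.0, 128 and 81.9 CPM in WT line 1, 86.4, 81.3 and 56.1 CPM in RTF2-deficient line 1, 97.2, 135 and 86.2 CPM in WT line 2 and 61.3, 47.3 and 67.6 CPM in RTF2-deficient line 2. The groups overlapped in line 1 and were apart in line 2, and the WT lines had similar levels. Over both lines its log2 fold change was -0.68 (SE 0.162, adjusted p = 0.0164), and the call held with each library left out. It was -0.51 in line 1 (SE 0.225, adjusted p = 0.334; in the paired fit -0.52, adjusted p = 0.000273) and -0.86 in line 2 (SE 0.226, adjusted p = 0.0318, lower in 3 of 3 libraries), with no difference called between them (-0.34, adjusted p = 0.953). The call in line 2 was lost without WT line 2 replicate 2 (adjusted p = 0.0993) and without RTF2-deficient line 2 replicate 1 (0.0844) or replicate 2 (0.138).

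Sema3e, a class 3 ligand that binds Plxnd1 without a neuropilin, had 83.6, 107 and 79.9 CPM in WT line 1, 178, 198 and 133 CPM in RTF2-deficient line 1, 124, 113 and 83.1 CPM in WT line 2 and 143, 117 and 131 CPM in RTF2-deficient line 2. All 3 RTF2-deficient libraries of line 1 lay above its WT libraries, and in line 2 the groups overlapped. Its log2 fold change was 0.60 over both lines (SE 0.154, adjusted p = 0.0248) and 0.91 in line 1 (SE 0.182, adjusted p = 0.0224, higher in 3 of 3 libraries). In line 2 it was 0.29 (SE 0.181, adjusted p = 0.334), and the difference between lines of -0.62 was not called (adjusted p = 0.491). Over both lines the call was lost without WT line 1 replicate 1 (adjusted p = 0.0516) or WT line 2 replicate 3 (0.0539). Within line 1 it was lost without WT line 1 replicate 1 (0.0922) or replicate 3 (0.087) and without replicate 1 (0.0675) or replicate 2 (0.0988) of RTF2-deficient line 1.

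Sema3c and Sema3d differed chiefly through WT line 2. Sema3c, a ligand that acts through both neuropilins and is needed for the outflow tract of the heart, had 22.6, 14.4 and 20.5 CPM in WT line 1, 23.2, 18.1 and 21 CPM in RTF2-deficient line 1, 59.7, 53.0 and 75.6 CPM in WT line 2 and 28.8, 31.7 and 28.3 CPM in RTF2-deficient line 2. WT line 2 lay above every other library, and RTF2-deficient line 2 lay above both groups of line 1. The log2 fold change was 1.71 between the WT lines (SE 0.176, adjusted p = 0.000109, higher in 3 of 3) and -1.08 between genotypes in line 2 (SE 0.173, adjusted p = 0.00272, lower in 3 of 3), both kept with each library left out. In line 1 it was 0.11 (adjusted p = 0.862), and the effects differed by -1.20 (SE 0.244, adjusted p = 0.0413). That difference was called in only 2 of 12 fits with a library left out, those without WT line 1 replicate 1 and without WT line 2 replicate 2, and its adjusted p was 0.0673 to 0.115 in the others.

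Sema3d, another neuropilin ligand, had 21.9, 12.6 and 12.1 CPM in WT line 1, 37.6, 18.5 and 16.1 CPM in RTF2-deficient line 1, 68.5, 71.2 and 67.3 CPM in WT line 2 and 20, 17.4 and 31.2 CPM in RTF2-deficient line 2. WT line 2 was again above every other library, and the remaining groups overlapped one another. The log2 fold change was 2.15 between the WT lines (SE 0.347, adjusted p = 0.00202) and -1.59 between genotypes in line 2 (SE 0.340, adjusted p = 0.0119, lower in 3 of 3). The call in line 2 was lost without RTF2-deficient line 2 replicate 1 (adjusted p = 0.0541) or replicate 2 (0.0609). The effects of genotype differed by -2.22 between lines, with an adjusted p of 0.0533, which misses the threshold. This difference was called with no filter and in DESeq2. It was also called without WT line 1 replicate 1, RTF2-deficient line 1 replicate 3 or RTF2-deficient line 2 replicate 3. Within line 1 Sema3d was called in the paired fit alone (0.59, adjusted p = 0.000561).

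In the fit of all 12 libraries Sema3a was not called in any of the 6 comparisons, whereas the paired fit of line 1 called it higher (0.28, SE 0.0315, adjusted p = 0.000395). It had 201, 218 and 263 CPM in WT line 1, 249, 269 and 311 CPM in RTF2-deficient line 1, 209, 273 and 288 CPM in WT line 2 and 293, 311 and 217 CPM in RTF2-deficient line 2, so the 4 groups overlapped when pairs are left aside. Sema3b (4.98 to 16.2 CPM) and Sema3g (0.392 to 3.34 CPM), the remaining class 3 ligands, were not called either, with log2 fold changes over both lines of -0.53 (SE 0.279) and -0.65 (SE 0.424); in the paired fit of line 1 Sema3b was called (-0.29, adjusted p = 0.0413). Summed over class 3, the level was 92.0 ± 4.55 CPM per kilobase in WT line 1, 103 ± 5.61 in RTF2-deficient line 1, 117 ± 9.34 in WT line 2 and 93.9 ± 4.41 in RTF2-deficient line 2 (SD, n = 3 each). The sum was thus higher in every library of WT line 2 (109 to 127) than in those of its RTF2-deficient partner (89.6 to 98.4). In line 1 the means had the opposite order, but the libraries of the genotypes met at 96.9. Neither difference of these sums was tested.

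Among membrane semaphorins, Sema6a, Sema6b and Sema7a were called in 1 or more comparisons. Sema6a, a transmembrane ligand of Plxna2 and Plxna4, had 4.51, 4.61 and 8.01 CPM in WT line 1, 6.90, 10.3 and 14.2 CPM in RTF2-deficient line 1, 30.5, 34.7 and 47.1 CPM in WT line 2 and 21.7, 27.9 and 19.9 CPM in RTF2-deficient line 2. Both groups of line 2 lay above both groups of line 1. The log2 fold change between the WT lines was 2.71 (SE 0.306, adjusted p = 0.000199, higher in 3 of 3). Between genotypes it was 0.87 in line 1 (SE 0.296, adjusted p = 0.177), and the paired fit of line 1 gave 0.87 (adjusted p = 0.000744). In line 2 the value was -0.69 (SE 0.284, adjusted p = 0.141). The difference of -1.57 was not called (adjusted p = 0.124), nor was 1.15 between the RTF2-deficient lines (SE 0.290, adjusted p = 0.08). DESeq2 called Sema6a in line 1, for the interaction and between the RTF2-deficient lines. With the replicate block on all 12 libraries it was also called between the RTF2-deficient lines.

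Sema6b, a close relative of Sema6a that also binds A-class plexins, had 0.549, 0.718 and 0.482 CPM in WT line 1, 0.645, 0.417 and 0.463 CPM in RTF2-deficient line 1, 3.08, 2.73 and 2.24 CPM in WT line 2 and 1.25, 1.13 and 0.995 CPM in RTF2-deficient line 2. WT line 2 was highest, RTF2-deficient line 2 stood between it and line 1, and the genotypes of line 1 overlapped; the lowest library held 17 reads of this gene. Its log2 fold change was 2.20 between the WT lines (SE 0.241, adjusted p = 0.000166) and 1.14 between the RTF2-deficient lines (SE 0.246, adjusted p = 0.0412), each higher in 3 of 3 libraries. Between genotypes it was -1.26 in line 2 (SE 0.229, adjusted p = 0.00542, lower in 3 of 3), -0.20 in line 1 (adjusted p = 0.83) and -0.78 over both lines (SE 0.227, adjusted p = 0.0413). The difference of the effects, -1.06, was not called (adjusted p = 0.259). The call over both lines was kept in 3 of 12 fits with a library left out, those without WT line 1 replicate 1 or 3 or RTF2-deficient line 1 replicate 1, with adjusted p of 0.0615 to 0.113 in the rest, and it was lost with no filter and with genotype as the sole term. The replicate block on all 12 libraries took away the call over both lines too. The call between RTF2-deficient lines was kept in 4 of 12 fits with a library left out. These were the fits without WT line 1 replicate 2 or 3, WT line 2 replicate 1 or RTF2-deficient line 1 replicate 1. Adjusted p was 0.0556 to 0.154 in the rest. With no filter this call was lost as well.

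Sema7a varied widely within groups. It had 10.4, 17.7 and 33.3 CPM in WT line 1, 10.9, 24.8 and 51.3 CPM in RTF2-deficient line 1, 3.80, 4.15 and 6.80 CPM in WT line 2 and 17.0, 31.0 and 12.3 CPM in RTF2-deficient line 2. WT line 2 lay below every other library, and the other groups overlapped. The log2 fold change was 2.03 between genotypes in line 2 (SE 0.591, adjusted p = 0.0457, higher in 3 of 3) and -2.06 between the WT lines (SE 0.591, adjusted p = 0.0405, lower in 3 of 3). In line 1 it was 0.50 (SE 0.559, adjusted p = 0.794; in the paired fit 0.44, adjusted p = 0.00986), with a difference between lines of 1.53 that was not called (adjusted p = 0.691). The call in line 2 was lost without WT line 1 replicate 2, any library of WT line 2, RTF2-deficient line 1 replicate 2 or RTF2-deficient line 2 replicate 1 or 2 (adjusted p = 0.0648 to 0.183). Between the WT lines it was lost without WT line 1 replicate 2 or 3, any library of WT line 2, RTF2-deficient line 1 replicate 2 or RTF2-deficient line 2 replicate 1 (0.052 to 0.135). Over both lines Sema7a had 1.25 (SE 0.460, adjusted p = 0.0981), not called in the main fit. That value was called in DESeq2 and without WT line 1 replicate 3 or RTF2-deficient line 1 replicate 1.

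The other 10 membrane semaphorins were not called in any of the 6 comparisons of the main fit. In the paired fit of line 1, Sema4f (0.81, adjusted p = 0.000358) and Sema4b (0.21, adjusted p = 0.041) were higher and Sema4a (-1.16, adjusted p = 0.024) was lower; between the WT lines, Sema4b and Sema6c were called with the replicate block, and Sema6c with no filter. DESeq2 called Sema4b, Sema4c and Sema6c between the WT lines, Sema6d in line 2 and Sema4f between the RTF2-deficient lines. Sema4f was also called with the line 1 libraries alone (adjusted p = 0.035), and single fits with a library left out called Sema4b, Sema4c, Sema4f or Sema6c. Levels ranged from Sema5b (0.143 to 0.874 CPM) and Sema4a (0.172 to 1.19 CPM) to Sema4b (10.9 to 22.6 CPM) and Sema4c (17.7 to 26.8 CPM). Sema4d, which binds Plxnb1, had 1.43 to 2.31 CPM. Between them lay Sema6d (1.23 to 3.87 CPM), Sema4g (1.42 to 3.13 CPM), Sema4f (3.51 to 11 CPM), Sema5a (4.25 to 8.47 CPM) and Sema6c (4.63 to 14.2 CPM). Their log2 fold changes over both lines ran from -0.71 in Sema4a (SE 0.319) to 0.56 in Sema6d (SE 0.215).

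Plexins held both the gene that had been chosen by its fall and the member with the smallest adjusted p. Plxna3 (Entrez Gene 18846), an A-class plexin through which Sema3f signals with Nrp2, had 31.0, 30.4 and 28.9 CPM in WT line 1, 7.93, 6.30 and 7.97 CPM in RTF2-deficient line 1, 29.5, 29.2 and 35.6 CPM in WT line 2 and 5.85, 5.82 and 7.84 CPM in RTF2-deficient line 2. The highest RTF2-deficient library had 7.97 CPM and the lowest WT library 28.9 CPM. As a description, its log2 fold change was -2.15 over both lines (SE 0.103), -2.02 in line 1 (SE 0.141) and -2.27 in line 2 (SE 0.143), with a difference between lines of -0.25 (SE 0.194). WT line 2 over WT line 1 gave 0.06 (SE 0.134, and -0.05 without WT line 2 replicate 3) and between the RTF2-deficient lines -0.19 (SE 0.140), likewise as a description.

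Plxna2, an A-class plexin that binds class 3 ligands with a neuropilin and Sema6a directly, had 77.5, 80.3 and 64.6 CPM in WT line 1, 92.5, 101 and 93.9 CPM in RTF2-deficient line 1, 18.3, 20.1 and 20.4 CPM in WT line 2 and 69.4, 70.0 and 64.2 CPM in RTF2-deficient line 2. WT line 2 stood below every other library, and in each line every RTF2-deficient library lay above every WT library. Its log2 fold change was 1.79 in line 2 (SE 0.0905, adjusted p = 1.43e-06), 0.37 in line 1 (SE 0.0873, adjusted p = 0.0473) and 1.07 over both lines (SE 0.222, adjusted p = 0.00813), each higher in 3 of 3 libraries a line. The effects differed between lines by 1.42 (SE 0.124, adjusted p = 0.000551). Between the WT lines it was -1.92 (SE 0.0908, adjusted p = 6.23e-07) and between the RTF2-deficient lines -0.49 (SE 0.0874, adjusted p = 0.0152), each lower in 3 of 3. The values over both lines, in line 2, between the WT lines and of the interaction kept their calls with each library left out, and that over both lines was lost with genotype as the sole term. In line 1 the call was lost in 11 of 12 such fits (adjusted p = 0.0528 to 0.189, the exception being the fit without WT line 2 replicate 1), with upper-quartile normalization, with no filter and with the line 1 libraries fitted alone (0.118; 0.002 with the replicate block on them). The replicate block on all 12 libraries also took away the call in line 1. Between the RTF2-deficient lines the call was lost without replicate 2 of RTF2-deficient line 1 (0.0719) and without replicate 1 (0.0502), 2 (0.0579) or 3 (0.059) of RTF2-deficient line 2.

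**Figure D2:**
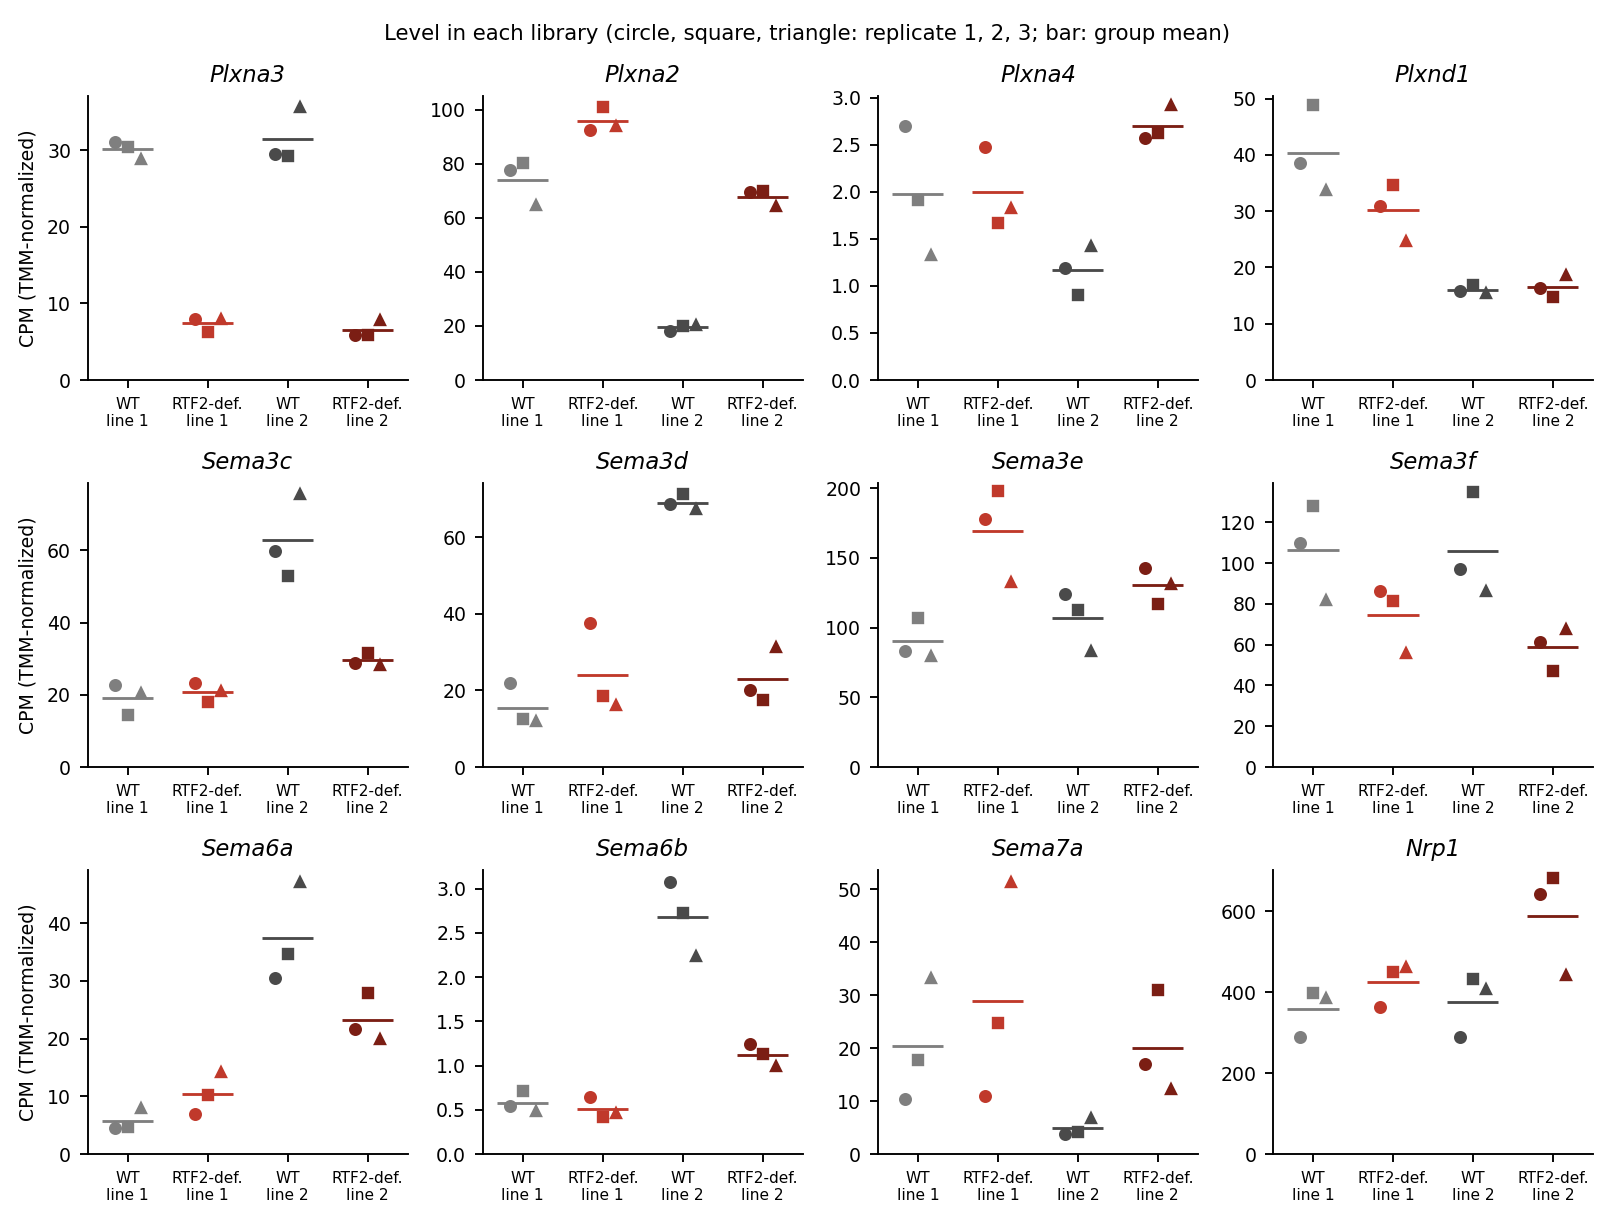
TMM-normalized CPM in each library for 12 members, by genotype and line (3 libraries a group, marker shape gives the replicate number, bars are group means, each axis starts at 0). Plxna3 lies between 28.9 and 35.6 CPM in the WT libraries and between 5.82 and 7.97 CPM in the RTF2-deficient ones, while Plxna2, Sema3c, Sema3d and Sema7a set WT line 2 apart.

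The other A-class plexins were Plxna1 and Plxna4. Plxna1, the coreceptor of Nrp1 for Sema3a, was not called in any comparison and had 301 to 503 CPM. Plxna4, which also pairs with neuropilins, had 2.70, 1.91 and 1.33 CPM in WT line 1, 2.48, 1.67 and 1.83 CPM in RTF2-deficient line 1, 1.19, 0.904 and 1.42 CPM in WT line 2 and 2.57, 2.62 and 2.92 CPM in RTF2-deficient line 2. In line 2 its RTF2-deficient libraries were above the WT libraries, and in line 1 the groups overlapped. Its log2 fold change was 1.21 in line 2 (SE 0.275, adjusted p = 0.0158, higher in 3 of 3, and 0.0542 without WT line 2 replicate 2) and 0.01 in line 1 (adjusted p = 0.994), with a difference of 1.19 that was not called (adjusted p = 0.259). Plxna4os1 lies within Plxna4 over 4436 bases, and whether the counting used strand is not stated.

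Taken per kilobase, the A-class plexins summed to 59.5 ± 4.73 CPM per kilobase in WT line 1, 59.5 ± 5.22 in RTF2-deficient line 1, 52.1 ± 11.2 in WT line 2 and 51.6 ± 4.65 in RTF2-deficient line 2 (SD, n = 3 each), so the genotypes differed by less than the spread between libraries. Plxna1 made up 81.2%, 83.3%, 87.3% and 85.8% of that sum in these groups. Plxna2 made up 11.3 ± 0.787%, 14.7 ± 1.81%, 3.55 ± 0.968% and 12 ± 1.22% in the same order. The share of Plxna3 was 7.30 ± 0.338% in WT line 1 and 1.79 ± 0.184% in RTF2-deficient line 1, and 8.94 ± 1.85% in WT line 2 and 1.82 ± 0.351% in RTF2-deficient line 2, again as a description. In WT line 2 Plxna3 thus held a larger share than Plxna2, and in the other 3 groups the order was reversed.

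Of the B-class plexins, Plxnb1, the receptor of Sema4d, had 52.5, 49.1 and 34.3 CPM in WT line 1, 35.3, 30.9 and 23.2 CPM in RTF2-deficient line 1, 31.2, 25.1 and 28.2 CPM in WT line 2 and 22.3, 19.2 and 26.0 CPM in RTF2-deficient line 2. The genotypes overlapped in each line, and WT line 1 lay above WT line 2. In the paired fit of line 1 it was lower (-0.60, SE 0.0437, adjusted p = 4.56e-05). Its log2 fold change was -0.46 over both lines (SE 0.135, adjusted p = 0.0419) and -0.68 between the WT lines (SE 0.189, adjusted p = 0.035, lower in 3 of 3). The call over both lines was lost in 8 of 12 fits with a library left out (0.0724 to 0.0979), the exceptions being those without WT line 1 replicate 3, WT line 2 replicate 2, RTF2-deficient line 1 replicate 1 or RTF2-deficient line 2 replicate 3, and it was lost with no filter and with genotype as the sole term. That between the WT lines was lost without WT line 1 replicate 1 or 2 or any library of WT line 2 (0.0508 to 0.102), and with the WT libraries fitted alone (0.0505; 0.0166 with the replicate block on them). Plxnb2 had 609, 620.0 and 492 CPM in WT line 1, 531, 537 and 449 CPM in RTF2-deficient line 1, 517, 499.8 and 492 CPM in WT line 2 and 455, 427 and 441 CPM in RTF2-deficient line 2. Its genotypes overlapped in line 1 and were apart in line 2, and its log2 fold change of -0.19 over both lines (SE 0.0687) was not called (adjusted p = 0.0983), though in line 1 the paired fit called -0.18 (adjusted p = 0.00556).

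Plxnd1, the receptor of Sema3e in vessels, had 38.5, 48.8 and 33.7 CPM in WT line 1, 31.0, 34.7 and 24.7 CPM in RTF2-deficient line 1, 15.9, 16.8 and 15.4 CPM in WT line 2 and 16.4, 14.7 and 18.7 CPM in RTF2-deficient line 2. Every library of line 1 was above every library of line 2, and the genotypes overlapped in each line. The log2 fold change was -1.33 between the WT lines (SE 0.157, adjusted p = 0.000261) and -0.86 between the RTF2-deficient lines (SE 0.156, adjusted p = 0.0172), each lower in 3 of 3 libraries of line 2. Over both lines the genotypes gave -0.19 (SE 0.125, adjusted p = 0.35), and the paired fit of line 1 called -0.42 (adjusted p = 0.000422). The call between the RTF2-deficient lines was lost without replicate 1 (0.0574) or 2 (0.0705) of RTF2-deficient line 1 and without replicate 1 (0.0652) or 2 (0.0862) of RTF2-deficient line 2. Plxnc1, the plexin that binds Sema7a, had 0.619 to 3.13 CPM and was not called in any comparison.

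Neither neuropilin was called in any of the 6 comparisons of the main fit. Nrp1 had 289, 399 and 386 CPM in WT line 1, 363, 449 and 463 CPM in RTF2-deficient line 1, 289, 432 and 408 CPM in WT line 2 and 643, 683 and 442 CPM in RTF2-deficient line 2. The line 2 groups were apart by a small gap and those of line 1 overlapped. Its log2 fold change was 0.65 in line 2 (SE 0.201, adjusted p = 0.0586). That value was called in DESeq2, with the replicate block on all 12 libraries and without RTF2-deficient line 2 replicate 3. Over both lines it was 0.45 (SE 0.148, adjusted p = 0.0692). The value over both lines was called in DESeq2 and without RTF2-deficient line 1 replicate 1 or RTF2-deficient line 2 replicate 3. In line 1 the paired fit called 0.25 (adjusted p = 0.00166). Nrp2 had 46.7 to 107 CPM, with a log2 fold change of 0.10 over both lines (SE 0.150). Plxdc2 had 224, 153 and 142 CPM in WT line 1, 251, 164 and 157 CPM in RTF2-deficient line 1, 197, 139 and 143 CPM in WT line 2 and 129, 139.9 and 207 CPM in RTF2-deficient line 2, so all groups overlapped. Plxdc1, described in tumour endothelium, had 0.0722 to 1.04 CPM, and neither Plxdc gene was called in the main fit; the paired fit of line 1 called Plxdc2 (0.13, adjusted p = 0.0151).

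Of 54 genes on a fixed list of plexin and neuropilin partners and effectors, 49 passed the filter. Between genotypes over both lines, 4 were lower and 5 higher, or 18.4% of those tested beside 13.2% of all genes (8.18% lower and 4.98% higher), with a median log2 fold change of 0.11 beside 0.00 in all genes. Cdk5, a kinase that phosphorylates collapsin response mediators downstream of Sema3a, was the only called gene past a log2 fold change of 1. It had 26.4, 27.0 and 23.8 CPM in WT line 1, 12.4, 10.2 and 9.92 CPM in RTF2-deficient line 1, 23.1, 26.2 and 23.8 CPM in WT line 2 and 9.31, 9.08 and 12.6 CPM in RTF2-deficient line 2. Every RTF2-deficient library was below every WT library, with log2 fold changes of -1.24 over both lines (SE 0.0934, adjusted p = 1.03e-05), -1.25 in line 1 and -1.24 in line 2.

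The remaining 8 were chosen after their values were seen, as the other genes called. Lower were Gipc1, an adaptor that binds the tail of Nrp1 (-0.51, adjusted p = 0.000401), the Rac regulator Sh3bp1, which binds Plxnd1 (-0.39, adjusted p = 0.00218), and the adhesion molecule L1cam, a partner of Nrp1 (-0.69, adjusted p = 0.0366). Higher were the collapsin response mediator Dpysl2 (0.55, adjusted p = 0.00596), the kinase Fyn (0.31, adjusted p = 0.00743), the cofilin phosphatase Ssh1 (0.26, adjusted p = 0.0232), the receptor kinase Erbb2, which associates with B-class plexins (0.20, adjusted p = 0.0442), and the VEGF receptor Kdr (0.58, adjusted p = 0.0492). The weakest calls depended on single libraries. Kdr was lost in 9 of 12 fits with a library left out (0.0565 to 0.119; kept without WT line 1 replicate 3, RTF2-deficient line 1 replicate 1 or RTF2-deficient line 2 replicate 3), and with the mean of both lines. Erbb2 was lost in 10 (0.0511 to 0.084; kept without WT line 2 replicate 2 or RTF2-deficient line 2 replicate 3). L1cam was lost in 8 (0.0524 to 0.0929; kept without WT line 1 replicate 1, WT line 2 replicate 1 or RTF2-deficient line 1 replicate 1 or 2), and Ssh1 without RTF2-deficient line 2 replicate 1 (0.054) or 2 (0.0552). Kdr, Erbb2 and L1cam were also lost with no filter and with genotype as the sole term, and Fyn and Ssh1 with genotype as the sole term. The replicate block on all 12 libraries took away the call of Kdr too.

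Within line 1, 3 genes of the list (Cdk5, Gipc1 and Limk1) were lower and 0 higher, or 6.12% of those tested beside 3.20% of all genes, and within line 2, 4 were lower and 9 higher, or 26.5% beside 12.5% (7.03% lower and 5.42% higher). The difference between lines was called in 1 (1.29% of all genes), the actin-oxidizing enzyme Mical2 (0.83, SE 0.165, adjusted p = 0.0394), and was lost in 9 of 12 fits with a library left out (0.0664 to 0.113; kept without WT line 1 replicate 1, WT line 2 replicate 1 or RTF2-deficient line 2 replicate 3). Mical2 lost this call with the replicate block on all 12 libraries too. Between the WT lines 11 genes of the list were lower and 4 higher in line 2, or 30.6% beside 14.0% of all genes (7.31% lower and 6.70% higher), with a median of -0.11 beside 0.02 in all genes. Between the RTF2-deficient lines edgeR called 0 of 49, where 10 had an unadjusted p under 0.05 and DESeq2 called 3.

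Plxna3 lies at chrX:74329066-74344689 on the + strand of GRCm38 in GENCODE M21, with 33 exons in a span of 15624 bases. Its introns are short, with a median of 137 bases, the same as in Sema4c; of the 33 members with a coding structure only Plxnb2 (128 bases) has a shorter median. Plxna2, with 32 exons, spans 197045 bases with a median intron of 1882 bases. Over the members the median of these medians was 584 bases, and over the 13116 genes tested with a structure it was 1565 bases.

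Genes within 50 kb of Plxna3 on chromosome X were taken by position, and values between genotypes over both lines are given here for 10 of them. The DNase relative Dnase1l1 had a log2 fold change of -0.97 (SE 0.131, adjusted p = 0.000559) and lay at 6.02 to 8.79 CPM in WT and 2.82 to 4.68 CPM in RTF2-deficient libraries, so that the 2 sets of libraries were apart. Fam3a had -0.49 (SE 0.0747, adjusted p = 0.00124) and Taz, the cardiolipin-remodelling enzyme tafazzin, had -0.42 (SE 0.119, adjusted p = 0.0375), which was lost in 9 of 12 fits with a library left out (0.0554 to 0.0924; kept without WT line 1 replicate 2, RTF2-deficient line 1 replicate 1 or RTF2-deficient line 2 replicate 3) and with no filter (0.0503). Taz also lost its call with the replicate block on all 12 libraries. Dnase1l1 and Taz overlap by 434 bases in the annotation, so reads there cannot be assigned without strand. The genes nearest to Plxna3 on either side with values were Fam50a (-0.03, SE 0.0940) and Lage3 (-0.29, SE 0.0999, adjusted p = 0.0775), neither of them called. Also not called were Atp6ap1 (-0.10), Ubl4a (-0.09), Slc10a3 (-0.09), Ikbkg (-0.07) and Gm44504 (0.20), which overlaps Slc10a3 and Ubl4a. None of the 10 was called for a difference of the effects between lines in edgeR, where the smallest adjusted p was 0.895 (unadjusted 0.218).

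Promoter sequences of RefSeq (GRCm38.p6, 250 bases before the start) were held for 26 of the 34 members in 37 promoters, among 32851 in all. Shown are stretches of 2 A-class genes with log2 fold changes of opposite sign, with the motif in capitals, searched on both strands. The promoter of Plxna3 had 12 CpG and 68.0% GC and that of Plxna2 18 CpG and 62.8% GC, beside medians of 6 and 52.4% over all promoters. Plxna3 has the letters TTTAAA 32 bases before its start, present in 12.1% of all promoters and in no other of the 26 members, and GGGCGG, here on the other strand as CCGCCC, present in 32.7% of all promoters and in 21 of the 26 members. TATAAA, also searched, was in 12.4% of all promoters and in 0 of the 26 members. Members were counted as genes with the motif in any of their 37 promoters, whereas the percentages are shares of single promoters. These figures have unlike units and are not a measured contrast. A match describes the letters only. The stretches are chrX:74329022-74329051 (+), chrX:74328976-74329005 (+) and chr1:194619734-194619763 (+), in this order.
Plxna3, TTTAAA: gtacggtccgggTTTAAAaggcccaggcgg
Plxna3, CCGCCC: tagggccccggcCCGCCCtctctgggagcc
Plxna2, GGGCGG: ggcggggcgcgtGGGCGGggagggggttaa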

How the data were processed

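The authors deposited, for each library, a raw count of reads per Entrez Gene identifier without normalization. The methods name Salmon and tximport and the processing notes name HTSeq, so the tool is not settled. All 12 columns were matched by label and used. Symbols and positions came from RefSeq, and transcript lengths and introns from GENCODE M21. filterByExpr was applied to the 4 groups, followed by TMM normalization and tests in edgeR 4.0.16 in R 4.3.3 (glmQLFit, glmQLFTest, Benjamini-Hochberg over 14263 genes). The comparison over both lines had terms for line and genotype, and the others were contrasts between the 4 group means. The standard error is the size of the unshrunken coefficient over the square root of F. Libraries of equal replicate number were checked for pairing by correlating residuals, and pairs of libraries for duplicates. The test was tested on simulated data. Alternatives were RLE and upper-quartile normalization, other filters, DESeq2 1.42.0, other terms, a replicate block, summed libraries, a fold threshold, each library left out and another length; fits of line 1 alone and of the WT libraries alone, and counts of members above a level, were chosen after seeing the data. Named in full by rule were Plxna3, members called with a log2 fold change beyond 1, the highest member of each class per length, pathway genes called with a log2 fold change beyond 1 over both lines, genes within 50 kb of Plxna3, Rtf2, 5 sex-linked genes and the top gene of each marker list; 1 gene near Plxna3 is not reported here. The members and lists were chosen with earlier results of these data known.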

Additional observations from a re-analysis of the deposited data

Results flagged for a closer look

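The effect of genotype on Plxna2 differed between the lines, by 1.42 on the log2 scale (line 2 minus line 1, interaction tested in edgeR, SE 0.124, adjusted p = 0.000551), with RTF2-deficient libraries above WT in 3 of 3 libraries of each line. The effect on Sema3c differed by -1.20 (SE 0.244, adjusted p = 0.0413), lower in 3 of 3 libraries of line 2, and the difference was called in 2 of 12 fits with a library left out. Plxna2 had 18.3 to 20.4 CPM in WT line 2 and 64.6 to 80.3 CPM in WT line 1. Both interactions take in WT line 2, the only group with male-like levels of sex-linked genes. An effect that differs by line therefore cannot be told apart here from sex or embryo. Groups of 3 libraries were not examined for single libraries far from the others.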

How the results depend on the processing

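Of 45 called differences of named genes, refitted 892 times under the alternatives, 716 fits kept direction and call, 176 kept the direction without the call and 0 reversed; 13 differences kept their call in every fit run for them, none of them over both lines, the one comparison fitted with libraries summed. Plxna3 between the WT lines, a description, was 0.06, with a range of -0.05 (without WT line 2 replicate 3) to 0.11 with a library left out. The cause of the changes below was not tested.
Over both lines, 5 members were called. The count was 3 with no filter, 2 with genotype as the sole term, 1 with the fold threshold, and 2 to 7 with a library left out. It was 0 in edgeR with the 3 libraries of each group summed, as it was for all 14263 genes, Rtf2 included; there 7 members had an unadjusted p under 0.05, and DESeq2 on all libraries called 7. Within line 1, where 2 were called, it was 1 with upper-quartile normalization, 1 with no filter, 1 with the replicate block on all 12 libraries, 16 with the block on line 1 alone, 4 with DESeq2, 0 with the fold threshold and 0 to 3 with a library left out; the fits with 0 had 6 to 9 members at an unadjusted p under 0.05. Within line 2 the 7 became 9 with DESeq2 and 4 to 9 with a library left out. For the interaction the 2 became 4 with DESeq2, 3 with no filter and 1 to 3 with a library left out. Between the WT lines the 8 became 6 to 10 with a library left out, 11 with DESeq2, 9 with no filter and 10 with the replicate block on the WT libraries alone, which took away no call. On all 12 libraries, where the numbers of RTF2-deficient line 2 do not pair, the block gave 4 over both lines, 8 within line 2, 2 for the interaction, 10 between the WT lines and 4 between the RTF2-deficient lines. This block took away the calls of Sema6b, Kdr and Taz over both lines, of Plxna2 in line 1 and of Mical2 for the interaction, and of no other named gene. Same-number correlations of RTF2-deficient line 2 with the other groups ran from -0.587 to 0.166, whereas its replicates 3, 1 and 2 correlated with replicates 1, 2 and 3 of each other group at 0.336 to 0.652. The labels give no such order, so no fit used it, and a shared origin in that order is neither shown nor excluded. Between the RTF2-deficient lines the 3 became 5 with DESeq2, 1 with the fold threshold and 0 to 4 with a library left out, with 6 to 8 at an unadjusted p under 0.05 where it was 0. The share of all genes called moved as well. With a library left out it was 8% to 13.7% over both lines, 1.33% to 3.33% in line 1, 5.62% to 16.4% in line 2, 0.456% to 1.13% for the interaction, 8.69% to 15.4% between the WT lines and 0.822% to 2.78% between the RTF2-deficient lines. With DESeq2 these shares were 18.9%, 5.97%, 18.1%, 2.87%, 19.3% and 4.87% in the same order. With the union of exons as length, mean levels per kilobase were 18.6 CPM for Sema3a, 65.5 for Plxnb2 and 44.7 for Nrp1. Plxnb3 and Plxna4os1 lay below the level of 3 counts, so no difference of theirs could be detected at this depth.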

Other observations

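The median intron length of the tested members was set beside their values in RTF2-deficient cells. The split at 300 bases was chosen after the values were seen and has no test. Plxna3, chosen by its fall, is left out. Of the 9 other tested members with a median intron under 300 bases, 7 had a log2 fold change below 0 over both lines (median -0.19), beside 8 of the 22 with longer introns (median 0.11). In all genes tested, the 1455 with a median intron under 300 bases had a median of -0.14 and the other 11661 had 0.01. The rank correlation of median intron and log2 fold change, across genes that are not independent replicates and share the same 12 libraries, was 0.26 over 31 members and 0.20 over 13116 genes, so the members were close to all genes. Of the 7 members below 0, Plxnb1 and Sema3f alone were called over both lines.

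Several partners of the family differed between the WT lines, and these were named after their values were seen. The collapsin response mediator Crmp1 had a log2 fold change of -3.19 in WT line 2 over WT line 1 (SE 0.574, adjusted p = 0.00376), with 3.68, 10.0 and 9 CPM in WT line 1 and 0.456, 1.23 and 0.779 CPM in WT line 2. The growth factor Pgf, a ligand of neuropilin and VEGF receptor complexes, had -1.91 (SE 0.244, adjusted p = 0.000448), Vegfa had -0.70 (SE 0.118, adjusted p = 0.00248) and Vegfc had 1.77 (SE 0.393, adjusted p = 0.0123). The call of Vegfc was lost without WT line 1 replicate 2 (0.0596). Each stood apart between the groups in the direction given, in edgeR's test of 3 libraries against 3.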
